A study of Drosophila melanogaster with 6 samples.

Results

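The 10 small heat shock and cochaperone genes described here are Hsp22, Hsp23, Hsp26, Hsp27, Hsp67Ba, Hsp67Bc, Hsp60A, Hsp83, DnaJ-1 and stv of Drosophila melanogaster. They were taken as a fixed list of names, and all 10 were found among the 17612 genes of the count table by chromosome, start and end on the dm6 genome. The counts come from RNA immunoprecipitation followed by sequencing (RIP-seq), here used to find transcripts that come down with the protein Isha. For Isha RIP, precleared nuclear extract (preimmune serum, 12 mg per precipitation) was bound to a rabbit anti-Isha serum (Isha-Rb94) on beads, and the RNA held there was sequenced. The input group was nuclear extract as well, by the titles of its libraries, sequenced with no antibody. The embryos behind both groups were Oregon R wild type, 0 to 24 h of age and of mixed stage, with no heat shock or other treatment named in the labels, and each had 3 libraries. No precipitation with a control serum was analysed here, and binding to Isha and binding to serum or beads cannot be told apart.

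Heat shock proteins are chaperones that bind unfolded proteins. Small heat shock proteins share an alpha-crystallin domain, form large oligomers and hold clients without using ATP, for release to the Hsp70 machine, whose J-domain partners such as DnaJ-1 deliver clients and stimulate its ATPase and whose BAG-domain partners such as stv (starvin) act as nucleotide exchange factors. Hsp83 is the cytosolic Hsp90 of the fly, which matures kinases and steroid receptors, and Hsp60A is the mitochondrial chaperonin. Under heat the transcription factor Hsf induces most of these genes strongly, but several are also transcribed without stress during development: Hsp83, Hsp26 and Hsp27 RNAs are supplied by the mother, and Hsp23 is expressed in parts of the embryonic nervous system.

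Of the 10 genes, 9 passed the filter on low counts, 5 were higher and 3 lower in Isha RIP than in input, and 1, Hsp83, did not pass. Calls are at a Benjamini-Hochberg adjusted p under 0.05 over all 11764 tested genes, from the quasi-likelihood test of edgeR. The higher ones were Hsp67Ba, stv, DnaJ-1, Hsp26 and Hsp27, and the lower ones Hsp60A, Hsp23 and Hsp67Bc. Over all tested genes 27.0% were enriched and 30.4% depleted by the same rule. The median log2 fold change was 0.25 over the 9 genes and -0.05 over all tested genes, whose percentiles 5 and 95 were -1.66 and 1.44, so every one of the 9 lay within the range of the middle 90 percent. The unit of level is CPM (counts per 1e6 counts of a library, with the library total first multiplied by a trimmed-mean factor, TMM). All fold changes are Isha RIP over input and are relative to the typical transcript. They compare recovery in the precipitation with input, not expression between groups of cells. For a level in RNA from nuclear extract of many embryos, fewer cells of a type and less nuclear RNA per cell cannot be told apart.

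Library totals were 8386414 to 14342543 counts in Isha RIP and 29344529 to 31680173 in input, and 3 counts, the floor used here, equalled 0.208 to 0.355 CPM in Isha RIP and 0.0953 to 0.103 CPM in input. The coefficient of variation between libraries had a median, over 7723 genes with 10 CPM or more, of 9.07% in Isha RIP and 6.23% in input. Whether replicate libraries came from separate extracts is not in the labels; the spread behind each p-value is that of the libraries alone and may be technical. Genes of early embryos (ftz, eve, Kr, hb, bcd, osk and halo) summed to 231 to 269 CPM in Isha RIP libraries and 174 to 198 CPM in input, and genes of late embryos (Mhc, elav, nSyb, Cpr49Ac, vkg and Hml) to 4471 to 4615 CPM in Isha RIP and 7792 to 7953 CPM in input. Of the early genes 2 rose and 1 fell, and of the late genes 3 rose and 3 fell. Most of the late sum came from Mhc (mean 2669 CPM in Isha RIP and 3762 CPM in input) and vkg (1066 and 3664 CPM). Both fell, as did Hml, while elav, nSyb and Cpr49Ac rose. Adult yolk protein and male gonad genes summed to 0.592 to 5.47 CPM in Isha RIP and 4.04 to 5.56 CPM in input, with Acp26Aa at 0 in all 6 libraries. The part of these stage markers in the results below was not tested.

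**Figure D1:**
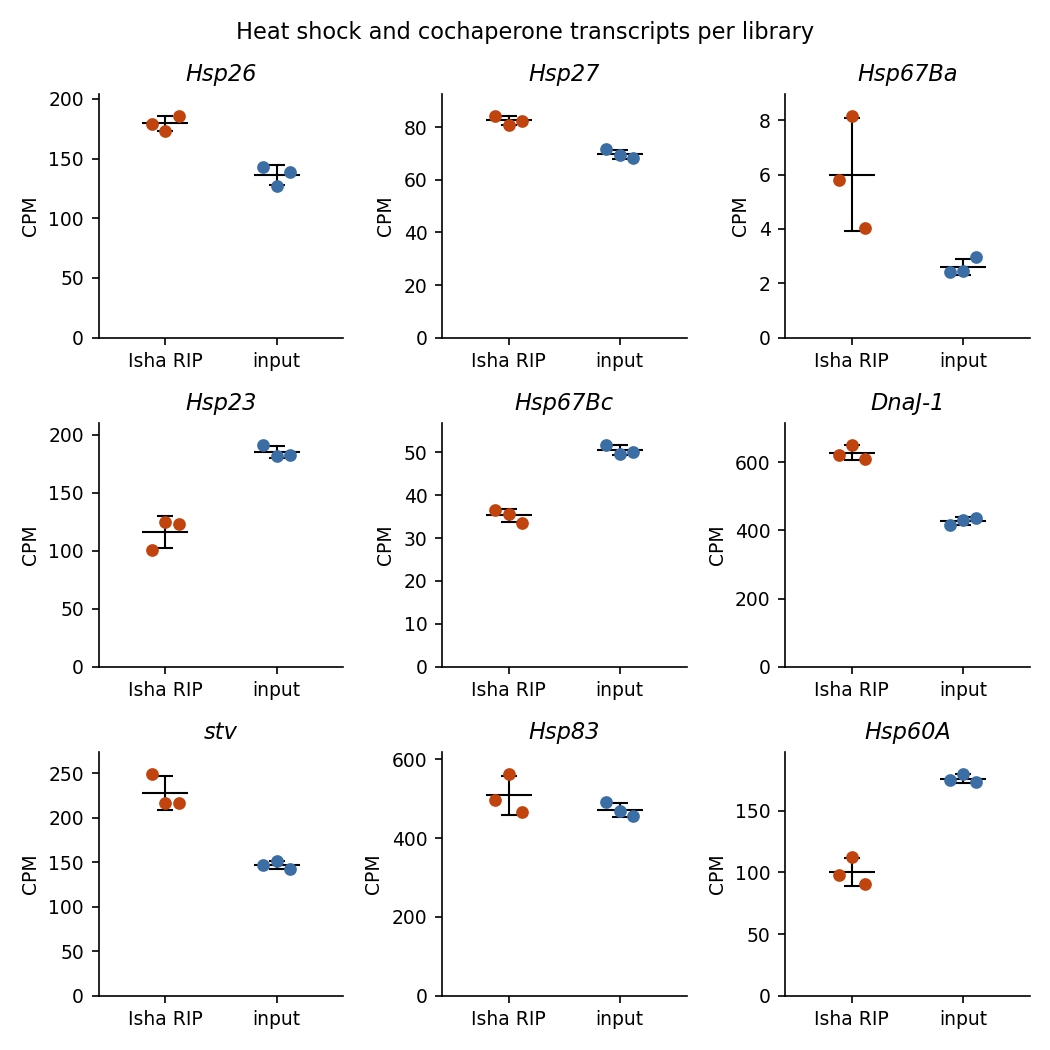
CPM of the 9 tested genes in each library, with Isha RIP left of input; points are libraries and bars are mean and SD of 3. The Isha RIP points lie wholly above input for Hsp26, Hsp27, Hsp67Ba, DnaJ-1 and stv and wholly below for Hsp23, Hsp67Bc and Hsp60A, and the groups overlap for Hsp83.

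The 6 small heat shock genes lie together in the 67B cluster on chromosome 3L, and their recovery went in both directions. Hsp26 is a cytosolic small heat shock protein whose RNA is made in the ovary. It was measured at 179, 173 and 186 CPM in the Isha RIP libraries, against 143, 127 and 139 CPM in input. All Isha RIP libraries stood above all input libraries, and the log2 fold change was 0.40 (standard error 0.066, adjusted p = 1.70e-05, edgeR), a 1.32-fold difference.

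Hsp27, a small heat shock protein found in nuclei in the fly, had 84.3, 80.9 and 82.5 CPM in Isha RIP, against 71.5, 69.3 and 68.2 CPM in input. The groups did not overlap, and the spread within each was small, at an SD of 1.71 and 1.73 CPM. The log2 fold change of 0.25 (standard error 0.082, adjusted p = 0.0140, edgeR) was the smallest of the 8 called changes, and it no longer passed without Isha RIP replicate 1 (0.22, adjusted p = 0.0506) or input replicate 3 (0.23, adjusted p = 0.0560).

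Hsp67Ba, a long member of the family with 1 exon of 1733 bases, had the lowest counts of the 9 tested genes. Its raw counts were 51, 69 and 58 in Isha RIP and 75, 71 and 93 in input, or 5.78, 8.16 and 4.02 CPM in Isha RIP, against 2.42, 2.44 and 2.95 CPM in input. Isha RIP replicate 2 was the highest library and replicate 3 the lowest of its group, yet still above every input library. The log2 fold change of 1.19 (standard error 0.38, adjusted p = 0.0110, edgeR), a 2.28-fold difference, was the largest among the 9 genes and had the largest error. Without Isha RIP replicate 2 it was 0.90 and did not pass (adjusted p = 0.0799). Of its 1733 exon bases, 1316 overlap the antisense gene asRNA:CR43481, which had 23, 30 and 13 counts in Isha RIP and 76, 75 and 61 in input and did not pass (log2 fold change -0.01, adjusted p = 0.990, edgeR).

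Hsp23, a cytosolic small heat shock protein, fell in Isha RIP. It had 100.3, 124 and 123 CPM in the Isha RIP libraries, against 191, 182 and 182 CPM in input. Isha RIP replicate 1 was the lowest library, and the highest Isha RIP library was still well under the lowest input library. The log2 fold change was -0.67 (standard error 0.076, adjusted p = 7.07e-08, edgeR), which places it 1.59-fold lower.

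Hsp67Bc, a fly relative of human HSPB8 that works with stv in clearing damaged proteins by autophagy, fell as well. It had 36.6, 35.6 and 33.6 CPM in Isha RIP, against 51.8, 49.6 and 50.0 CPM in input, with no overlap and with SDs of 1.54 and 1.15 CPM. The log2 fold change was -0.52 (standard error 0.11, adjusted p = 0.000283, edgeR). With an offset for gene length it was -0.25 and did not pass (adjusted p = 0.0632).

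Hsp22, the mitochondrial small heat shock protein, was listed at 0 in all 6 libraries, and this value gives no level. All 1900 bases of its exons lie inside the exons of CG4456, the gene also known as Hsp67Bb, on the same strand. Across the table, 427 genes were enclosed in this way and all 427 had 0 counts in every library, whereas of 132 genes enclosed only by exons of the opposite strand 31 had 0 counts throughout and 48 had at least 100 counts in total. A read from Hsp22 could therefore not be counted to it. The 209 exon bases of CG4456 that Hsp22 does not share left that gene 18, 10 and 30 counts in Isha RIP and 46, 10 and 18 in input, or 1.77 ± 0.506 CPM in Isha RIP and 0.799 ± 0.603 CPM in input (SD, n = 3). The groups overlapped, and CG4456 did not pass (log2 fold change 1.14, standard error 0.82, adjusted p = 0.244, edgeR). Without input replicate 1 its value was 1.94, also not passing (adjusted p = 0.125). The same result separates opposite strands: since genes enclosed by an opposite-strand gene kept counts, reads of Hsp67Ba and asRNA:CR43481 were counted apart, as were those of Hsp27 and CR43483 (49 shared bases) and of Hsp83 and CG14966 (15 shared bases).

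The cluster spans 14184 bases of dm6 chromosome 3L (3L:9371511-9385694) and meets the exons of 10 genes of the table, of which 7 were tested. From left to right these were Hsp67Bc (minus strand, 1 exon, depleted), CG4456 and Hsp22 (plus strand), CG4461, Hsp26 (minus, 1 exon, enriched), Hsp67Ba (minus, 1 exon, enriched), asRNA:CR43481, Hsp23 (plus, 1 exon, depleted), Hsp27 (plus, 1 exon, enriched) and CR43483. Hsp23 and Hsp27 lie in tandem 1297 bases apart and went in opposite directions, while Hsp26 and Hsp67Ba, 374 bases apart on the minus strand, both rose. CG4461, a further alpha-crystallin gene, did not pass the count filter, with 0, 9 and 0 counts in Isha RIP and 6, 0 and 10 in input, and CR43483 had 0 counts throughout. Of the 6 tested genes nearest the cluster, 3 on each side, 1 rose, 1 fell and 4 did not pass. Both called genes lay on the right side and were named after their values were seen. The cap-binding factor gene eIF4E1 had 303 ± 5.77 CPM in Isha RIP and 205 ± 4.98 CPM in input. The cuticle protein gene Cpr67B had 20.3 ± 0.958 CPM in Isha RIP and 33.5 ± 2.01 CPM in input (SD, n = 3).

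**Figure D2:**
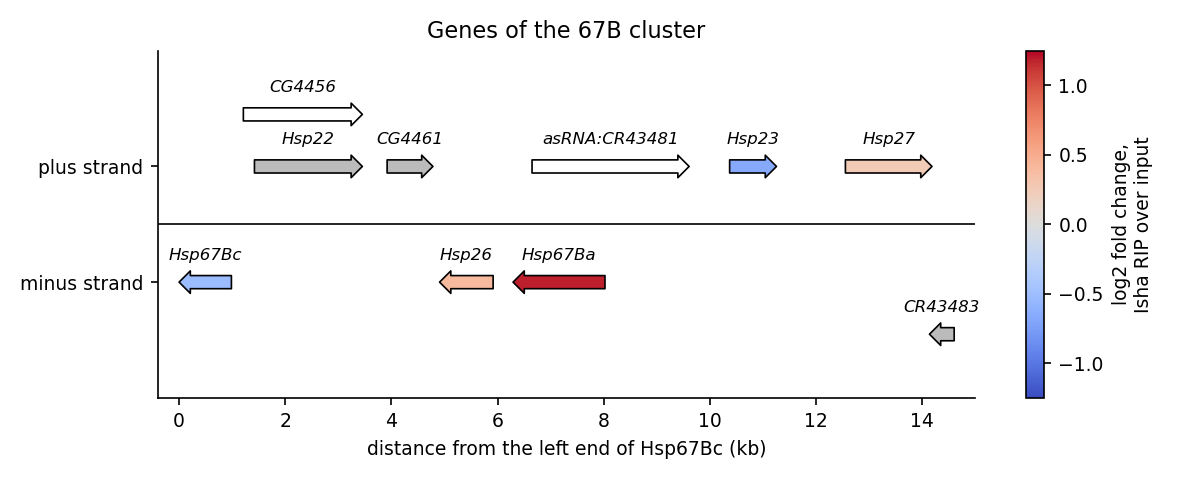
Map of the 67B cluster, with distance in kilobases from the left end of Hsp67Bc on the x axis and the 2 strands above and below the line; arrows point in the direction of transcription. Colour gives the log2 fold change of called genes, white marks tested genes that did not pass (CG4456 and asRNA:CR43481), and grey marks genes not tested (Hsp22, CG4461 and CR43483). Called genes of both directions are interspersed along the cluster.

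Ratios of 2 genes within a library do not depend on how libraries were scaled. The ratio of Hsp26 to Hsp27 was 2.12, 2.14 and 2.25 in Isha RIP, against 1.996, 1.83 and 2.03 in input, a small shift of 0.15 on the log2 scale. Against Hsp23 the shift was larger: the ratio of Hsp26 to Hsp23 was 1.79, 1.39 and 1.51 in Isha RIP, against 0.747, 0.698 and 0.761 in input, with a wide gap between the groups. The ratio of Hsp27 to Hsp23 was 0.841, 0.651 and 0.669 in Isha RIP, against 0.374, 0.381 and 0.374 in input. Hsp67Bc to Hsp23, both depleted, overlapped between groups, at 0.365, 0.286 and 0.272 in Isha RIP and 0.271, 0.273 and 0.274 in input. For each of the first 3 ratios the 2-sided exact permutation p was 0.1, the smallest that 3 libraries against 3 can give, and for the last it was 0.3 (0.129 and 0.327 after Benjamini-Hochberg adjustment over the 36 pairs of tested genes).

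Both cochaperones, DnaJ-1 and stv, rose. DnaJ-1, a J-domain partner of Hsp70 (the fly Hsp40), had 623, 652 and 611 CPM in Isha RIP, against 416, 431 and 437 CPM in input. All Isha RIP libraries were higher, with a log2 fold change of 0.55 (standard error 0.044, adjusted p = 2.28e-10, edgeR), a 1.47-fold difference. The gene lies on 3L:5750029-5752189 on the minus strand, and its annotated transcripts include one that keeps an intron, so that its exons merge into 1 block of 2161 bases and reads from unspliced or intron-retaining RNA were counted.

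stv, the only BAG-domain cochaperone among the 10 and a partner of Hsp70 in muscle maintenance, had 250, 217 and 217 CPM in Isha RIP, against 148, 152 and 143 CPM in input. Isha RIP replicate 1 was the highest, and the groups did not overlap. The log2 fold change was 0.63 (standard error 0.065, adjusted p = 1.95e-08, edgeR), a 1.55-fold difference. The gene lies on 3L:13477541-13483515 on the plus strand, with 5 merged exons of 3670 bases in all. The ratio of DnaJ-1 to stv counts was 2.49, 3.00 and 2.82 in Isha RIP and 2.82, 2.84 and 3.06 in input, and the groups overlapped (exact permutation p = 0.5, 2-sided, n = 3 each).

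Hsp83, the fly Hsp90, was the tested gene of the 10 whose change did not pass. It had 496, 563 and 466 CPM in Isha RIP, against 491, 469 and 456 CPM in input. Isha RIP replicate 2 was the highest of the 6 libraries, and the other Isha RIP libraries lay at or near the range of input. The log2 fold change was 0.11 (standard error 0.056, adjusted p = 0.109, edgeR). It passed under 6 of 16 alternative settings, with values between 0.13 and 0.16 where it did, among them the fit without Isha RIP replicate 3 (0.16, adjusted p = 0.0151). The ratio of DnaJ-1 to Hsp83 was 1.26, 1.16 and 1.31 in Isha RIP, against 0.847, 0.919 and 0.959 in input, with no overlap (exact permutation p = 0.1, 2-sided, the smallest possible). Hsp83 lies on 3L:3192969-3197059 on the plus strand with 2 merged exons.

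Hsp60A, the only gene of the 10 on the X chromosome (X:11108482-11112308, plus strand, 4 merged exons), was the most depleted. It had 98.2, 113 and 90.6 CPM in Isha RIP, against 175, 180.0 and 173 CPM in input. The highest Isha RIP library was far under the lowest input library, and the log2 fold change was -0.81 (standard error 0.076, adjusted p = 3.50e-09, edgeR), or 1.76-fold lower. The ratio of Hsp83 to Hsp60A was 5.05, 4.997 and 5.15 in Isha RIP, against 2.81, 2.60 and 2.64 in input (exact permutation p = 0.1, 2-sided, n = 3 each).

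**Figure D3:**
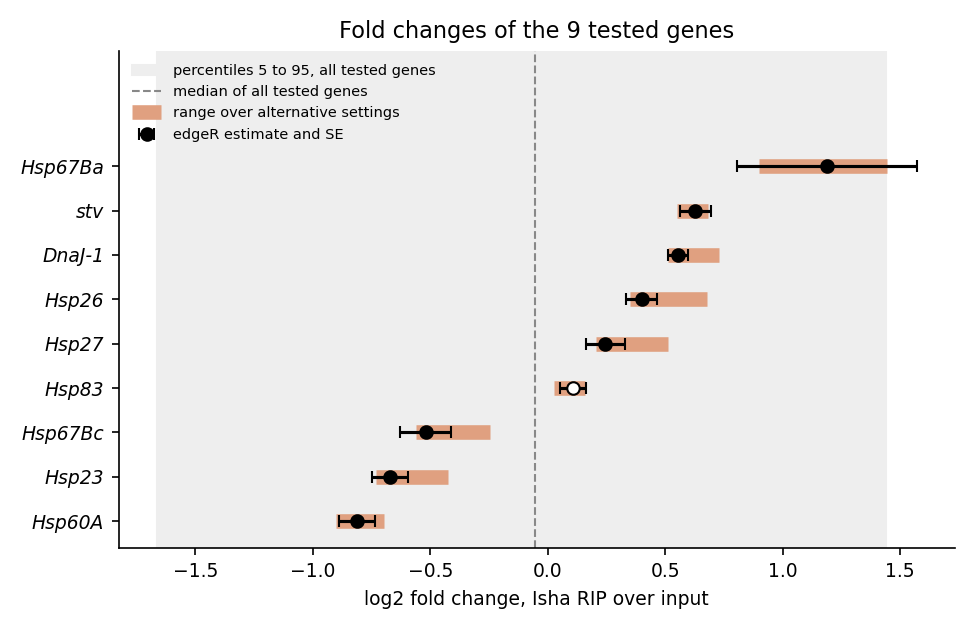
Log2 fold change of Isha RIP over input (x axis) for the 9 tested genes, with points and bars as edgeR estimates and standard errors (open for Hsp83, which did not pass) and wide bars as the range over alternative settings. The grey band and dashed line show percentiles 5 and 95 and the median of all tested genes; no gene's wide bar crosses 0, and all point estimates lie inside the band.

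For 8 of the 9 genes the groups had no overlap in CPM, 5 higher and 3 lower in Isha RIP, against 64.0% of all tested genes with no overlap. By rank of log2 fold change among the 11764 tested genes the 9 genes were spread from Hsp67Ba at percentile 92.1 to Hsp60A at percentile 20.5. In between stood stv at percentile 78.7, DnaJ-1 at 76.2, Hsp26 at 70.0, Hsp27 at 63.4, Hsp83 at 57.0, Hsp67Bc at 30.0 and Hsp23 at 24.6. The transcript of su(Hw), taken only as a point of comparison, stood at percentile 75.2, between DnaJ-1 and Hsp26. It had 105.9 ± 1.49 CPM in Isha RIP and 73.5 ± 4.24 CPM in input (SD, n = 3).

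Per length of exon the order of the genes differed between the groups. In Isha RIP, levels in CPM per kilobase were 291 ± 9.75 for DnaJ-1, 178 ± 6.22 for Hsp26, 172 ± 16.8 for Hsp83, 131 ± 15.4 for Hsp23, 62.1 ± 5.18 for stv, 50.6 ± 1.04 for Hsp27, 40.5 ± 4.54 for Hsp60A, 35.7 ± 1.56 for Hsp67Bc and 3.46 ± 1.201 for Hsp67Ba (SD, n = 3). Of the neighbours in that order, Hsp26 and Hsp83 overlapped, as did Hsp60A and Hsp67Bc. In input, levels in CPM per kilobase were 209 ± 6.07 for Hsp23, 198 ± 5.11 for DnaJ-1, 159 ± 5.90 for Hsp83, 135 ± 8.19 for Hsp26, 70.9 ± 1.47 for Hsp60A, 51.1 ± 1.17 for Hsp67Bc, 42.7 ± 1.06 for Hsp27, 40.1 ± 1.24 for stv and 1.502 ± 0.176 for Hsp67Ba, and no neighbours overlapped. Hsp23 was thus first in input and the fourth in Isha RIP. Together the 10 genes held 0.190% ± 0.00788 of all counts in Isha RIP and 0.165% ± 0.00124 in input.

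**Figure D4:**
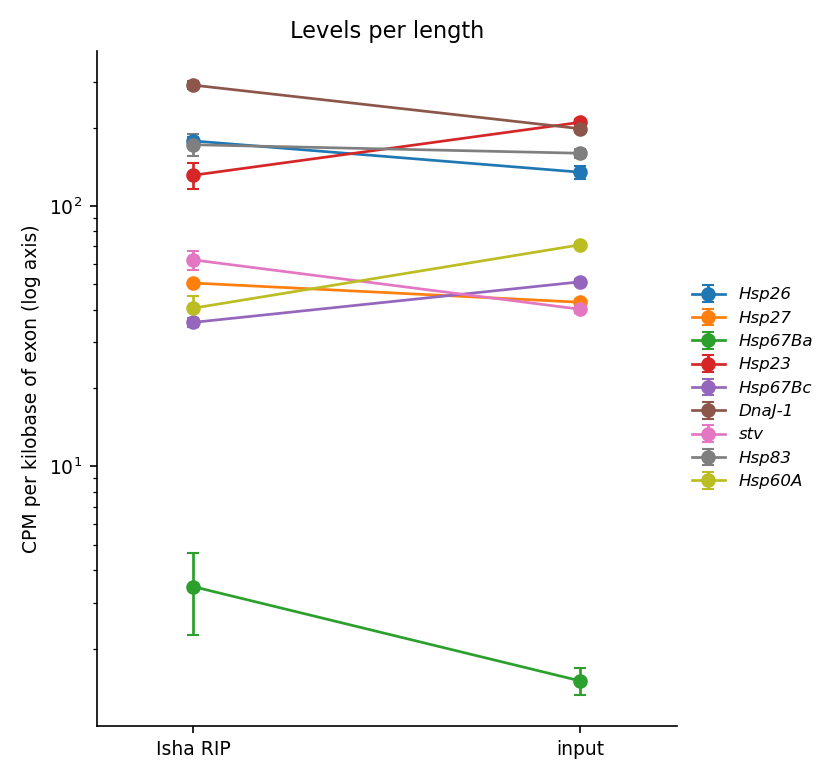
Levels of the 9 counted genes in CPM per kilobase of exon (log axis) in Isha RIP and input; points are means and bars are SD of 3 libraries. Lines of Hsp23, Hsp67Bc and Hsp60A go up towards input and the others go down, so the order changes, with DnaJ-1 at 291 in Isha RIP and Hsp23 at 209 in input as the highest levels.

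Gene structure was set beside these values because 6 of the 9 tested genes have 1 merged exon. Of those 6, 4 were enriched (Hsp26, Hsp27, Hsp67Ba and DnaJ-1) and 2 depleted (Hsp23 and Hsp67Bc). DnaJ-1 is in this class only because an annotated transcript that keeps an intron merges its 3 exon blocks into 1. Over the 1234 tested coding genes with 1 merged exon the median log2 fold change was -0.32, with 17.0% enriched and 35.7% depleted. Over the 9506 with 2 or more it was -0.06, with 28.7% enriched and 31.4% depleted. These shares also varied with exon length. From the shortest to the longest length class, 17.4%, 13.7%, 17.8% and 59.4% of genes with 1 merged exon were enriched (32 genes in the longest). With 2 or more, the shares were 17.1%, 19.3%, 29.0% and 49.0%. The exon classes were thus close in the shortest class and in reversed order in the longest. The part of exon number apart from length was not tested. Among coding genes of the same exon class and length class, Hsp67Ba stood at percentile 95.9, DnaJ-1 at 82.2, Hsp26 at 80.3 and Hsp27 at 76.2, and Hsp67Bc at 41.4 and Hsp23 at 36.3. Of the genes with more exons, stv stood at percentile 81.7, Hsp83 at 58.6 and Hsp60A at 16.2.

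Other genes of the chaperone network went both ways as well. Of 66 tested genes in 6 lists (other small heat shock genes, Hsp70 and Hsp110 genes, J-domain genes, Hsp90 paralogues and cochaperones, chaperonins, and heat shock regulators), 25 rose, 24 fell and 17 did not pass, with a median log2 fold change of 0.09. The values over all tested genes, beside which these counts and those of each list below are to be read, were 27.0% enriched, 30.4% depleted and a median of -0.05. No list was tested as a set.

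Among other alpha-crystallin genes 4 of 6 were tested, and 1 rose and 3 fell, with a median of -1.18. CG14207, a second relative of HSPB8, had 109 ± 4.77 CPM in Isha RIP and 70.5 ± 4.48 CPM in input (SD, n = 3; log2 fold change 0.63, adjusted p = 5.50e-07, edgeR), so that it rose while Hsp67Bc fell. l(2)efl, a relative of alpha-crystallin B, had 12.9 ± 0.170 CPM in Isha RIP and 34.0 ± 3.35 CPM in input (log2 fold change -1.39). CG13133 and CG7409, at log2 fold changes of -1.41 and -0.96, had low group means, of 1.32 and 3.04 CPM in Isha RIP and 3.64 and 5.94 CPM in input, and lost their calls under 7 and 5 of 17 alternative settings. Without Isha RIP replicate 3 the value of CG13133 was -2.07 (adjusted p = 0.00451, edgeR).

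Of 10 tested chaperonins 6 were lower and 1 higher, with a median of -0.70, against 30.4% lower, 27.0% higher and a median of -0.05 over all tested genes. All 6 that fell encode subunits of the cytosolic CCT ring, which folds actin and tubulin, and CCT1 (log2 fold change -1.33), CCT5 (-1.04) and CCT4 (-1.04) had the smallest adjusted p, while CCT2 and CCT3 did not pass at -0.02 and 0.13. The 1 that rose, CG11267, encodes the Hsp10 lid of the mitochondrial chaperonin and had 237 ± 18.7 CPM in Isha RIP and 139 ± 4.79 CPM in input (log2 fold change 0.78, adjusted p = 5.51e-10, edgeR). It thus went opposite to its partner Hsp60A. The mitochondrial Hsp70 gene Hsc70-5 and the mitochondrial Hsp90 gene Trap1 fell, at log2 fold changes of -0.32 and -0.62.

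The 14 tested Hsp90 paralogues and cochaperones split into 7 that rose, 3 that fell and 4 that did not pass (median 0.27). The Hsp90 cochaperone p23 had 129.9 ± 9.01 CPM in Isha RIP and 76.1 ± 2.29 CPM in input, and nudC had 57.2 ± 7.92 CPM in Isha RIP and 27.97 ± 1.92 CPM in input (SD, n = 3). HIP, an Hsp70-interacting protein, was highest at a log2 fold change of 2.16, but it has a close copy, HIP-R, with which reads could be split. Gp93, the Hsp90 of the endoplasmic reticulum, had 1116 ± 6.22 CPM in Isha RIP and 1751 ± 49.3 CPM in input, and Sgt fell by 1.31 on the log2 scale. Stip1 at 0.15, Cdc37 at -0.05 and unc-45 at 0.05 were among the 4 that did not pass. Hsp83, which is not counted in this list, did not pass either, at 0.11.

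Besides DnaJ-1, 22 J-domain genes were tested, of which 10 rose and 8 fell (median 0.40). Tpr2 had 283 ± 9.003 CPM in Isha RIP and 124 ± 6.96 CPM in input, Csp, the cysteine string protein of synaptic vesicles, rose by 0.68 on the log2 scale, and mrj rose by 1.16. Sec63 of the endoplasmic reticulum translocon, shv and wus fell by 0.64, 0.92 and 0.58. CG32640 and CG32641, both called as rising, are near copies of each other, and their reads are uncertain.

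The 12 tested Hsp70 and Hsp110 genes had a median log2 fold change of 0.39, and 4 rose and 4 fell. Hsc70-3, the endoplasmic reticulum Hsp70 (BiP), had 3599 ± 151 CPM in Isha RIP and 2332 ± 36.9 CPM in input, and the cytosolic Hsc70-4 had 1138 ± 50.1 CPM in Isha RIP and 1358 ± 25.6 CPM in input (SD, n = 3). Hsp68 fell by 0.32 on the log2 scale, a call lost with an offset for gene length (-0.16, adjusted p = 0.0526). The heat-inducible Hsp70 genes are near-identical copies of one another among which reads may be split, and their values differed in sign. Hsp70Bb and Hsp70Ba rose, at 1.64 and 1.85. Hsp70Ba was low and variable, at 8.02 ± 4.59 CPM in Isha RIP and 2.21 ± 1.07 CPM in input (SD, n = 3). Without Isha RIP replicate 2, its highest library, its value was 1.29 (adjusted p = 0.0298, edgeR). Hsp70Aa fell, at -2.14, the lowest value of the 66 genes (adjusted p = 0.00873, edgeR). It had 0.606 ± 0.330 CPM in Isha RIP and 2.73 ± 0.822 CPM in input (SD, n = 3). Hsp70Ab at 0.21 and Hsp70Bc at 0.58 did not pass, and Hsp70Bbb was not tested.

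Among heat shock regulators the RNA of the transcription factor Hsf had 224 ± 14.3 CPM in Isha RIP and 235 ± 18.7 CPM in input (SD, n = 3) and did not pass (log2 fold change -0.07, adjusted p = 0.371, edgeR). Trl, which encodes the GAGA factor that keeps heat shock promoters open, did not pass either at 0.18. Of its 6254 exon bases, 4865 overlap exons of CG42507 and Tsen34 on the same strand, so its value rests on the other bases. The heat-inducible lncRNA:Hsromega rose by 1.39 and Parp1, which encodes a poly(ADP-ribose) polymerase active at heat shock loci, by 0.93 on the log2 scale.

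**Figure D5:**
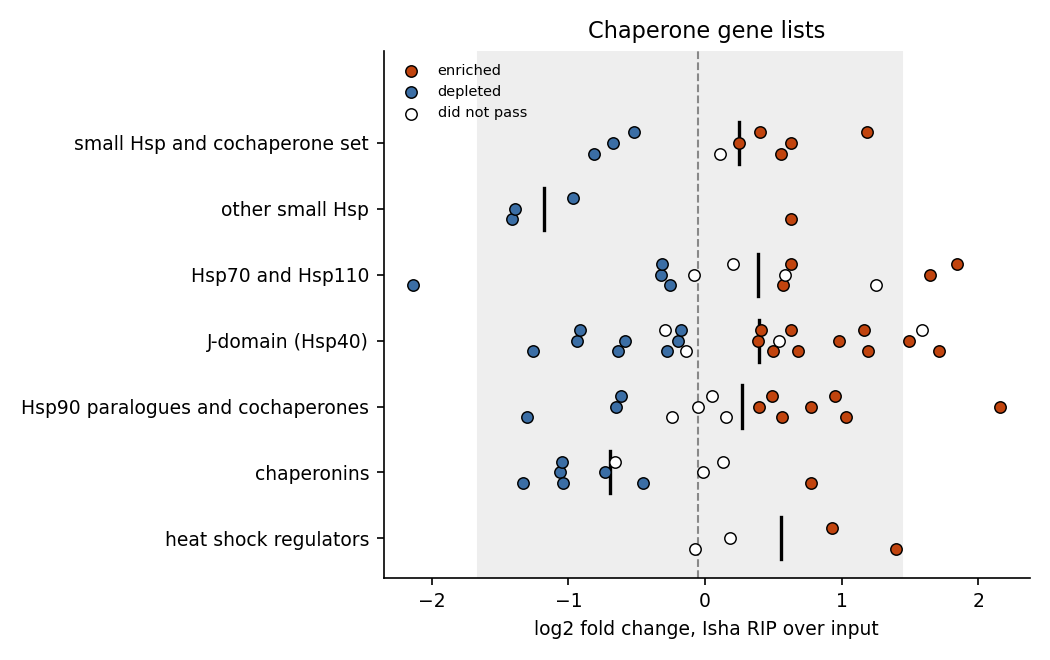
Log2 fold change of Isha RIP over input (x axis) for each tested gene of the small heat shock and cochaperone set and of 6 other chaperone lists; red points rose, blue points fell, white points did not pass, and black bars are medians. The grey band and dashed line are percentiles 5 and 95 and the median of all tested genes; the medians of chaperonins (-0.70) and other small heat shock genes (-1.18) lie left of it and the others to its right.

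The gene of at least 10 CPM with the most similar profile was sought for each of the 9 genes as the smallest Euclidean distance between centred log2 CPM over the 6 libraries, among 7723 genes. For Hsp67Bc it was Ac78C, an adenylate cyclase gene, at a distance of 0.0352, and for Hsp26 it was E(spl)m5-HLH, a Notch target, at 0.0439. Hsp27 was nearest to hep, a kinase of the JNK pathway, at 0.0522, stv to tea at 0.0582, DnaJ-1 to mim at 0.0586, Hsp60A to CG32266 at 0.0696, Hsp23 to CG18549 at 0.0786, Hsp83 to nwk at 0.0808 and Hsp67Ba to mRpL33 at 0.179. With 6 libraries in 2 groups these distances mostly describe a like fold change, and none of these genes is in a chaperone list.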

How the data were processed

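One file, a featureCounts-style table of raw counts (reads per FlyBase gene, 1 column per library, with summed exon length), was deposited by the authors and used. Software named in the submitters' processing notes is DESeq2 1.32.0, R 4.1.0, Subread 2.0.0 with featureCounts, HISAT2 2.2.1, cutadapt 2.9 and Picard 2.22.2, on build dm6; strand setting and annotation version were not found in these sources. Per the labels' protocols, reads were 50 bp and single-end.

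Symbols came from a RefSeq table of that build, by exact coordinates for 17170 genes and by synonym for 16. The list names DnaJ-60, l(2)tid, Ahsa1 and nos found no match. After filterByExpr (minimum count 10) and TMM scaling, edgeR 4.0.16 in R 4.3.3 fitted group alone, and its 2-sided quasi-likelihood test was used; a standard error is the absolute log2 fold change divided by the root of the F statistic. Alternatives used limma 3.58.1 and DESeq2 1.42.0. Pairs of libraries within a group showed more than counting noise (chi-square per degree of freedom 5.78 to 14.3), and each counted as 1 replicate. In simulated counts for Isha RIP against input, 11608 genes were tested. Recovery there was 2% at a 1.25-fold change, 26% at 1.5-fold, 94% at 2-fold and 100% at 4-fold, with 7 unchanged genes called. In the data, members called below 1.5-fold were Hsp27 (1.19-fold), Hsp26 (1.32-fold) and DnaJ-1 (1.47-fold), which rose, and Hsp67Bc (1.43-fold), which fell. Hsp83 (1.08-fold) was not called. Recovery at the spread of each single gene was not tested, and these percentages are not those of the members.

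The members and lists were chosen with earlier results of these data known. The named genes are the 10 members, genes overlapping them or inside the 67B cluster, up to 3 called genes of smallest adjusted p in each direction per list, su(Hw) and the gene of nearest profile for each member; Stip1, Cdc37, unc-45, CCT2, CCT3, Hsf, Trl, CG32640, CG32641, Hsp70Aa, Hsp70Ab, Hsp70Bc and Hsp70Bbb were named after their values were seen. The ratios between genes within a library were also added after the data were seen.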

Additional observations from a re-analysis of the deposited data

How the results depend on the processing

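All 9 genes kept their direction under every alternative run (16 or 17 each, since genes with overlapping exons have 16). Hsp26, Hsp23, Hsp60A, DnaJ-1 and stv also kept their calls in all of them. Leaving out each library in turn gave log2 fold changes of 0.22 to 0.27 for Hsp27, 0.90 to 1.41 for Hsp67Ba and 0.026 to 0.16 for Hsp83, and 4 to 6 enriched and 3 depleted genes of the 9. With a gene length offset Hsp67Bc did not pass (-0.25), and the sizes of other changes moved. Values with the offset were higher than without it for Hsp27 (0.51), Hsp26 (0.68), Hsp67Ba (1.44) and DnaJ-1 (0.73). Hsp23 (-0.42) and Hsp60A (-0.70) were less negative, and stv (0.57) was lower. Hsp83 passed with DESeq2 (0.15), library totals only (0.13), a strict count filter of 50 (0.15), a gene length offset (0.14) and counts thinned to equal depth (0.15); the cause was not tested. Without genes whose exons overlap others, 2053 of 7670 tested genes were enriched and 2343 depleted, and 3 of the 6 members left were enriched, since fewer genes were tested. asRNA:CR43481, which has no call, changed sign with DESeq2 (0.036), library totals (0.016), the strict filter (0.0070), the length offset (0.037) and thinning (0.051), and ranged from -0.45 to 0.40 with libraries left out. Deviations of same-numbered libraries from their group means had correlations of -0.036 to -0.0094, against -0.0018 to 0.032 for different numbers. Values this low show no shared deviation but cannot tell whether same-numbered libraries came from 1 extract, since other noise could hide it. With replicate as a block 3065 genes were enriched and 3520 depleted, 5 and 3 of the 9 members, and no call of a member changed. Depth limits Hsp67Ba, asRNA:CR43481, CG4456 and CG4461, which had under 100 counts in every library.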
